A study of Mus musculus with 4 samples.

Results

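The 9 genes described here are the 6 chains of collagen IV (Col4a1 to Col4a6), the collagens Col18a1 and Col5a1, and Sparc, chosen by gene symbol because they encode collagens of the lens capsule and a protein that binds them. All 9 were among the 10790 genes of the deposited table and all 9 passed the filter on low values. RNA came from whole lenses of mice at postnatal day 4, of 2 genotypes: Tdrd7 -/- (called Tdrd7 null here) and a control given as wild type. Each genotype had 2 libraries, labelled as biological replicates, and each library held RNA pooled from 15 lenses. In this text libraries are given in the order control replicate 1, control replicate 2, Tdrd7 null replicate 1, Tdrd7 null replicate 2. The sources used here do not give the allele, the strain or the sex of the mice. Whether the pools came from separate litters is not stated, so p-values measure only the spread between these pools.

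The lens capsule is a thick basement membrane that encloses the whole lens. The epithelium lays down its front and the fiber cells its back. Its scaffold is a network of collagen IV, in which the Col4a1 and Col4a2 products assemble with each other, the Col4a3 and Col4a4 products with that of Col4a5, and the Col4a5 product with that of Col4a6. COL4A1 and COL4A2 mutations can cause cataract in people, and loss of the COL4A3, COL4A4 or COL4A5 chain in Alport syndrome can make the lens bulge forward. Sparc encodes a secreted calcium-binding glycoprotein that binds collagen IV and takes part in its deposition, and mice without it develop cataract. Tdrd7 encodes a Tudor-domain protein of RNA granules, also tied to congenital cataract.

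The collagen IV genes lie in 3 head-to-head pairs, each pair read outwards from a shared start region. In the GRCm38 annotation Col4a1 (ENSMUSG00000031502, minus strand, chromosome 8, 11198423 to 11312826) and Col4a2 (ENSMUSG00000031503, plus strand, 11312805 to 11449287) overlap by 22 bases at their first exons. Col4a4 (ENSMUSG00000067158, minus strand, chromosome 1, 82452558 to 82586849) and Col4a3 (ENSMUSG00000079465, plus strand, 82586921 to 82722059) start 71 bases apart, and Col4a6 (ENSMUSG00000031273, minus strand, chromosome X, 141165403 to 141474076) and Col4a5 (ENSMUSG00000031274, plus strand, 141475385 to 141689234) 1308 bases apart. The plus strand of the first 2 start regions is shown from RefSeq (GRCm38.p6), since the level of each gene is compared below with that of its head-to-head partner. Capitals mark the overlap of both first exons for Col4a1 with Col4a2 at chr8:11312801-11312830, and the first base of each gene for Col4a4 with Col4a3 at chr1:82586849-82586921.
Col4a1 with Col4a2: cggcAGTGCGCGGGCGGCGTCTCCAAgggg
Col4a4 with Col4a3: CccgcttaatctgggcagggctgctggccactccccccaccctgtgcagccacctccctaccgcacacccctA

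The stretch shared by Col4a1 and Col4a2 holds 1 GC box (GGGCGG on either strand), and the stretch between Col4a4 and Col4a3 holds none. RefSeq windows from 250 bases before to 50 after the start were matched for 8 of the 9 genes by symbol. A GC box lay in the windows of 6 of these 8 genes, where 35.7% of all windows of that length held one. A CCAAT box lay in those of 4 of the 8, against 37.4% of all windows, and a TATA box (TATAAA) in 0 of the 8, against 13.6%. The 8 genes had 9 windows, of which 6 held a GC box and 4 a CCAAT box. Col4a1 and Col4a2, whose starts overlap, were among the genes with each of these boxes, so their matches may be the same letters. Each motif was searched on both strands, and a match is a run of letters, not a shown binding site.

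Reads in the listed genes came to 33920522 to 42767535 per library. Values are scaled reads, that is, reads per gene after division by a factor set for each library, and long genes gather more of them. The labels were checked first: Tdrd7 stood at 1188 and 972 scaled reads in control replicates 1 and 2 and at 165 and 96.6 in Tdrd7 null replicates 1 and 2. All 10 lens fiber markers and all 8 lens epithelium markers that were listed were present, with the fiber crystallins Cryaa at 125016 to 141976, Cryba1 at 54547 to 62446 and Crygd at 40404 to 50256 scaled reads. Cryaa was lowest in Tdrd7 null replicate 2, at 125016, where the other 3 libraries held at least 141600. In the epithelium, which lays down the front of the capsule, 3 of 8 markers were called between the genotypes, 37.5% against 18.0% of all genes. The transcription factor Foxe3 (-0.43, limma adjusted p = 0.00215) and the glucose transporter Slc2a1 (-0.27, adjusted p = 0.00533) were lower and the connexin Gja1 (0.33, adjusted p = 0.00692) higher. All 3 epithelium markers lost the call with the GC and length trend removed (-0.14, -0.18 and 0.19), where 3.17% of all genes were called. Pax6, at 106 to 112, and Ccnd1, at 76.6 to 80.2, did not pass. The summed level of the 8 was 592 and 603 in the control pools against 570 and 572 in the Tdrd7 null pools, and its part in the levels of the capsule genes was not tested. Slc2a1, Ccnd1 and Cryaa share exonic sequence with other genes. None of 11 macrophage and 8 retina markers was among the genes analysed here. In whole lenses fewer cells of a type and less RNA per cell cannot be told apart.

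No member passed the test between the genotypes. With limma and an adjusted p under 0.05, 0 of 9 were called, against 18.0% of the 10696 genes in the test. Of these 1077 (10.1%) were higher and 843 (7.88%) lower in Tdrd7 null lenses, a split that became 869 and 1072 with upper-quartile scaling and 766 and 1262 with libraries scaled to the total without the crystallins. At an unadjusted p under 0.05 there were 3 (Col4a1, Col4a3 and Col4a4), against 33.1% of all genes. The members' median log2 fold change was -0.02, against -0.01 over all genes, with 4 members above and 5 below 0. The libraries of the genotypes did not overlap for 4 of the 9 members, Col4a1, Col4a2, Col4a4 and Sparc, but the same held for 61.5% of all tested genes. The count of 0 depended on the setting. It was 1 with libraries scaled to the total without the crystallins, where 2028 of 10695 genes were called. With the replicate number as a block it was 2, where 2117 of 10696 genes were called. Without Tdrd7 null replicate 1, Col4a1 stood at -0.26, Col4a2 at -0.21, Col4a3 at -0.38 and Col4a4 at -0.27. Without Tdrd7 null replicate 2 these genes stood at -0.08, -0.08, -0.05 and -0.09.

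**Figure D1:**
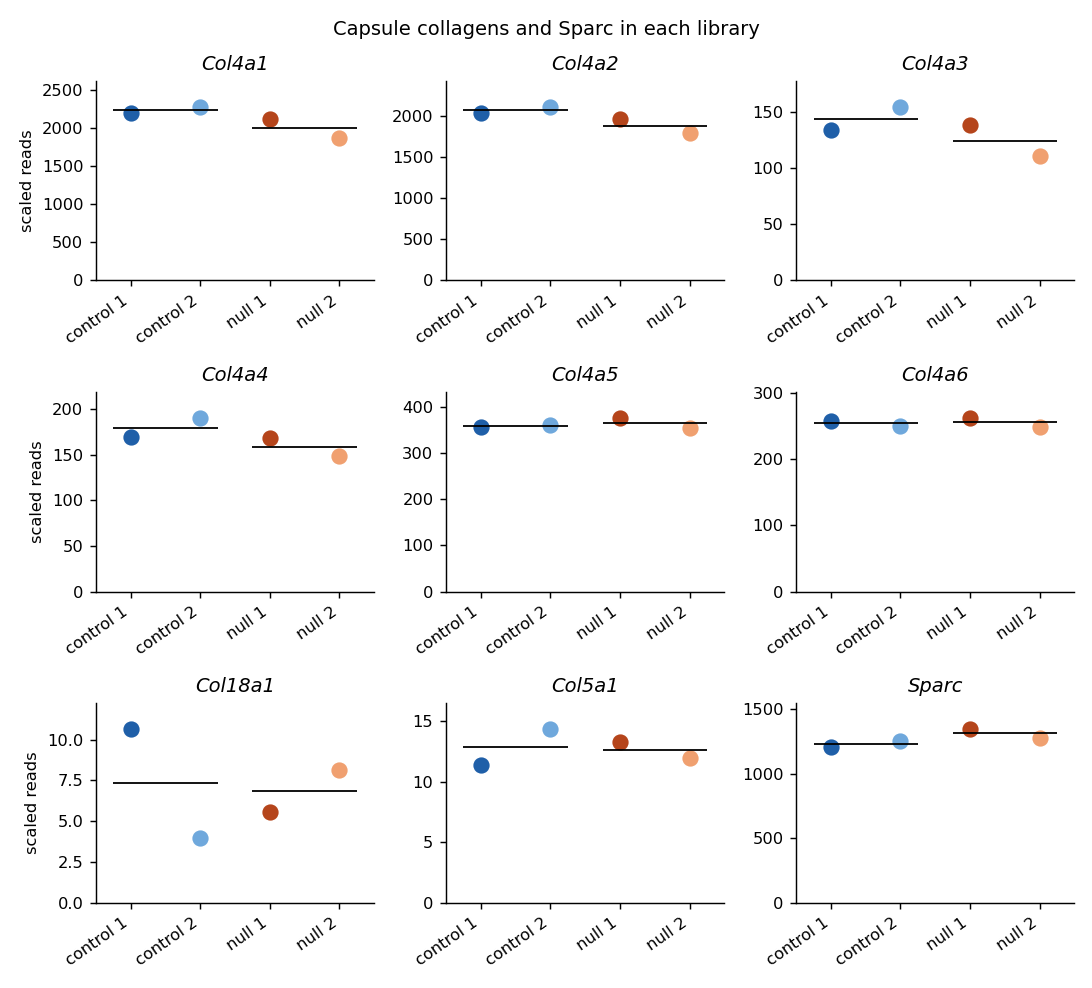
Scaled reads (y axes, from 0) of the 9 genes in each of the 4 libraries, with a bar at the mean of each genotype (n = 2). Col4a1 to Col4a4 are lowest in Tdrd7 null replicate 2, Col4a5, Col4a6 and Sparc vary little, and Col18a1 runs from 4.0 to 10.6 within the control libraries alone.

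Col4a1 and Col4a2, the chains of the main collagen IV network, were 0.891 and 0.907 times their control means in Tdrd7 null lenses. Col4a1 stood at 2207 and 2280 scaled reads in control replicates 1 and 2 and at 2119 and 1877 in Tdrd7 null replicates 1 and 2. Both control libraries were above both null libraries. The gap within the null pair was larger than the step from the lower control library (2207) to the higher null library (2119). The log2 fold change was -0.17 (SE 0.0730, 95% interval -0.33 to -0.01, limma adjusted p = 0.123).

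Col4a2 had the same order of libraries, at 2044 and 2112 in the control pools against 1969 and 1801 in the Tdrd7 null pools. Its log2 fold change was -0.14 (SE 0.0686, 95% interval -0.29 to 0.01, limma adjusted p = 0.169). Between 63958 and 96400 reads stood behind each of these values, so counting error was small beside the spread between pools.

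Col4a3 and Col4a4, the chains of the Alport network, also lay lower on average without passing. Col4a3 stood at 134 and 154 in the control pools against 139 and 110 in the Tdrd7 null pools. Control replicate 1 lay below Tdrd7 null replicate 1, so these groups overlapped. Its log2 fold change was -0.21 (SE 0.0909, 95% interval -0.41 to -0.02, limma adjusted p = 0.119). Of its exonic sequence 563 nt are shared with C430014B12Rik on the opposite strand, and the kit does not mark strand, so its value is uncertain to that extent.

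Col4a4 stood at 169 and 190 in the control pools against 168 and 149 in the Tdrd7 null pools. The groups were separate only by the small step from 169 to 168. Its log2 fold change was -0.18 (SE 0.0690, 95% interval -0.33 to -0.03, limma adjusted p = 0.0843), the smallest adjusted p of the 9 genes. It passed when libraries were scaled to their total without the crystallins (-0.22, limma adjusted p = 0.0380). In all 4 of Col4a1, Col4a2, Col4a3 and Col4a4, control replicate 2 was the highest library and Tdrd7 null replicate 2 the lowest.

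Col4a5 and Col4a6, the X-linked pair, were at nearly the same level in the genotypes. Col4a5, whose product joins both of the minor networks, stood at 356 and 362 in the control pools against 376 and 354 in the Tdrd7 null pools (log2 fold change 0.02, 95% interval -0.09 to 0.14, limma adjusted p = 0.807). Col4a6, whose human gene is deleted together with COL4A5 in Alport syndrome with leiomyomatosis, stood at 258 and 251 in the control pools against 262 and 249 in the Tdrd7 null pools (0.01, 95% interval -0.11 to 0.12, limma adjusted p = 0.945). The groups overlapped for both genes, and both values turned to just below 0 with upper-quartile scaling and with the total without the crystallins.

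Sparc was higher in both Tdrd7 null libraries than in both control libraries, by a small margin that did not pass. It stood at 1202 and 1255 in the control pools against 1343 and 1279 in the Tdrd7 null pools. The mean went from 1228 ± 37.2 to 1311 ± 44.9 (SD, n = 2 pools). The log2 fold change was 0.09 (SE 0.0612, 95% interval -0.04 to 0.23, limma adjusted p = 0.308). The gene (ENSMUSG00000018593) lies on chromosome 11 from 55394500 to 55420080.

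Col5a1, a chain of the fibril-forming collagen V, was rare in the lens, at 11.4 and 14.3 scaled reads in the control pools against 13.3 and 11.9 in the Tdrd7 null pools. Its groups overlapped and its log2 fold change was -0.02 (95% interval -0.23 to 0.19, limma adjusted p = 0.910). It shares 113 nt of exonic sequence with Gm13372 on the opposite strand. The gene (ENSMUSG00000026837) lies on chromosome 2 from 27886425 to 28039514.

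Levels between genes were compared as scaled reads per kb of annotated exon. Sparc was the most abundant, at 335 per kb on average over the 4 libraries, followed by Col4a2 at 299 and Col4a1 at 284. Then came Col4a5 at 53.9, Col4a6 at 32, Col4a4 at 15.9 and Col4a3 at 13.5, and last Col5a1 at 1.5 and Col18a1 at 1.01. Per kb of the longest transcript Sparc stood at 552, and Col4a1 (321) came before Col4a2 (307), so the order of the latter 2 depends on the length used. Per kb of annotated exon, neighbours overlapped over the libraries for Sparc with Col4a2 (not so per kb of the longest transcript, where Sparc was at least 523 and Col4a2 at most 328), Col4a2 with Col4a1, Col4a4 with Col4a3 and Col5a1 with Col18a1. The steps from Col4a1 to Col4a5, from Col4a5 to Col4a6 and from Col4a6 to Col4a4 were each larger than the whole range of either gene.

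**Figure D2:**
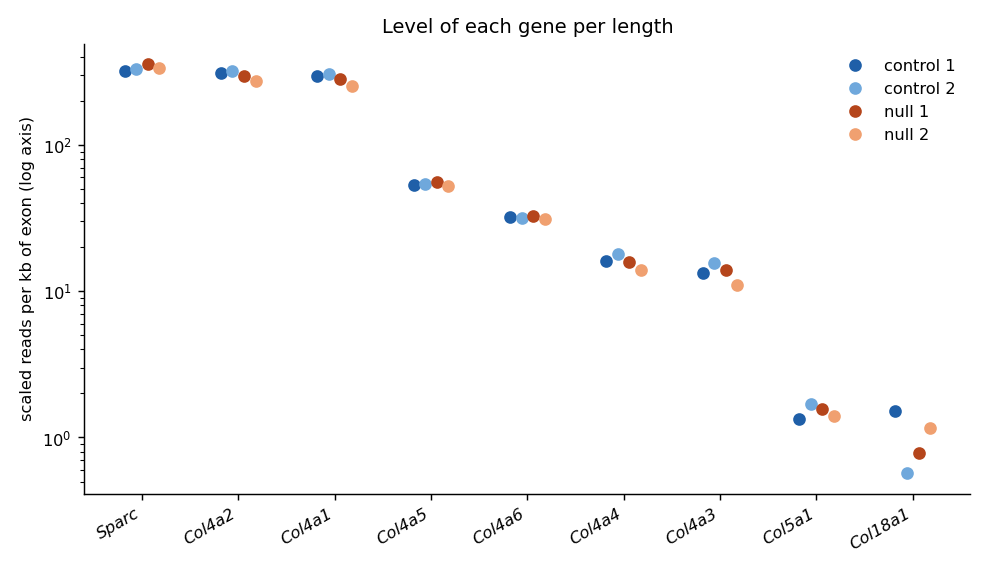
Scaled reads per kb of exon (log axis) of each gene in the 4 libraries, ordered by mean. Sparc, Col4a2 and Col4a1 form the top group between 251 and 355, the X-linked chains sit between 31.3 and 55.9, Col4a4 and Col4a3 between 11.1 and 17.9, and Col5a1 and Col18a1 below 2.

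Taken as shares of all collagen IV per kb, Col4a1 and Col4a2 made up most of it in both genotypes. The Col4a1 share was 41.1% in the control pools and 40.2% in the null pools, and that of Col4a2 42.9% and 42.8%. The Col4a5 share was 7.31 ± 0.0884% in control pools and 8.16 ± 0.232% in null pools, and that of Col4a6 4.37 ± 0.190% and 4.82 ± 0.173% (SD, n = 2). Col4a3 and Col4a4 together stayed the smallest part, with 1.97% and 2.32% in the control pools and 1.87% and 2.24% in the null pools. The summed collagen IV level was 719 and 743 per kb in the control pools against 700.0 and 633 in the Tdrd7 null pools, a difference of -65.0 (exact permutation p = 0.333, two-sided, which is the least a 2 against 2 design can give). It was -98.7 without Tdrd7 null replicate 1 and -31.3 without Tdrd7 null replicate 2.

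Ratios between head-to-head partners varied little from library to library, and these do not depend on how libraries were scaled. The log2 ratio of Col4a1 to Col4a2 was -0.06 and -0.06 in the control pools against -0.07 and -0.11 in the Tdrd7 null pools (difference -0.03, exact permutation p = 0.333, two-sided). For Col4a3 to Col4a4 it was -0.25 and -0.21 in the control pools against -0.19 and -0.34 in the Tdrd7 null pools (difference -0.03, exact permutation p = 1). For Col4a5 to Col4a6 it was 0.71 and 0.77 in the control pools against 0.77 and 0.75 in the Tdrd7 null pools (difference 0.02, exact permutation p = 1). Tdrd7 null replicate 2 gave the lowest ratio for the first 2 pairs. Without it the difference for Col4a3 to Col4a4 turned to 0.04, and without control replicate 1 that for Col4a5 to Col4a6 turned to -0.02. Without Tdrd7 null replicate 1 that for Col4a1 to Col4a2 was -0.05.

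Base composition moved with the difference between the genotypes over all genes: 2764 genes with under 45% GC had a median of 0.15 on the log2 scale, and 2351 genes with at least 55% GC one of -0.16. The members' longest transcripts ran from 50.4% GC (Col4a3) to 60.8% (Col18a1), all above the median of 49.6% over all genes. After removal of the GC and length trend from each library, Col4a1 (57.7% GC) went from -0.17 to 0.03 and Col4a2 (60.6% GC) from -0.14 to 0.11 on the log2 scale, so their direction turned, though neither value passed (limma adjusted p = 0.838 and 0.367). Col4a3 and Col4a4, with 50.4% and 51.1% GC, kept theirs at -0.15 and -0.10. Col4a5, Col4a6, Col5a1 and Sparc stood at 0.10, 0.13, 0.19 and 0.13, and Col18a1 at 0.27 with a limma adjusted p of 0.646. After this correction 0 of 9 members were called by limma, against 3.17% of 10656 genes (1.91% higher, 1.27% lower). At an unadjusted p under 0.05 there were 2, Col4a6 and Sparc, with limma adjusted p of 0.144 and 0.202. The part of base composition in these differences was not tested further.

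**Figure D3:**
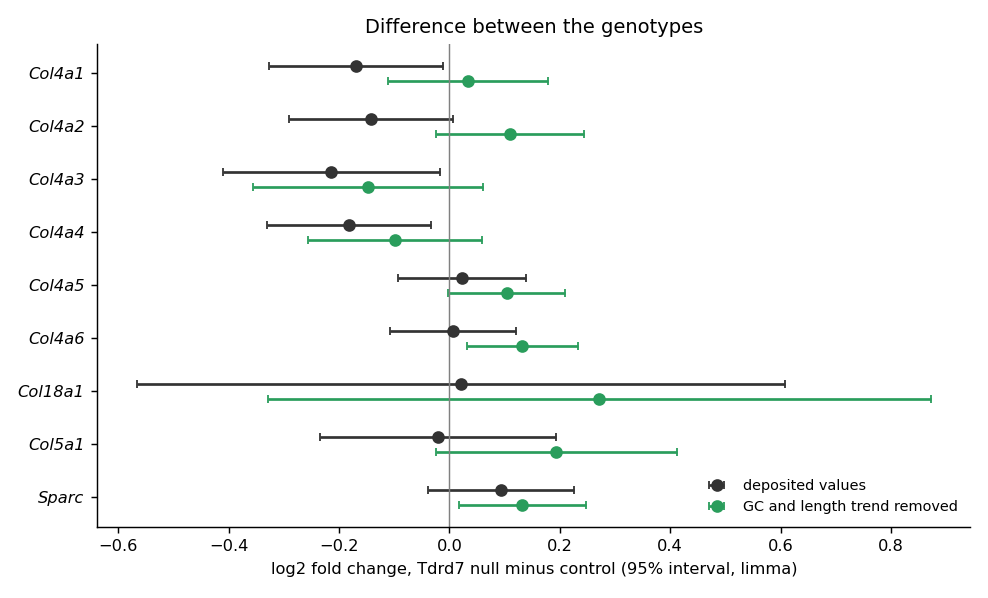
Log2 fold change of each gene, Tdrd7 null minus control, with its 95% interval from limma, for the deposited values (black) and with the GC and length trend removed (green). Col4a1 and Col4a2 move from below 0 to above it, while Col4a3 and Col4a4 stay below. Col18a1 has the widest interval of each colour, from -0.57 to 0.61 (black) and from -0.33 to 0.87 (green).

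Col18a1, a basement membrane collagen of vessels and epithelia whose end fragment is endostatin, varied more within a genotype than any other member. It stood at 10.6 and 4.0 scaled reads in the control pools against 5.53 and 8.17 in the Tdrd7 null pools. These values rested on 441, 169, 208 and 290 reads. The 95% Poisson intervals of the control libraries, which cover counting error only, were 9.67 to 11.7 and 3.42 to 4.65, so counting error was smaller than the gap between the replicates. The highest library was 2.66 times the lowest, and 1.31% of all tested genes had a ratio of at least 2. The gene (ENSMUSG00000001435) lies on chromosome 10 from 77052178 to 77166548. Its log2 fold change was 0.02 (SE 0.272, 95% interval -0.57 to 0.61, limma adjusted p = 0.967). It became 0.63 without control replicate 1 and -0.59 without control replicate 2, and neither passed (limma adjusted p = 0.0693 and 0.0739).

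Most endothelial markers shared with Col18a1 its lowest library and its 2 highest. The lens at this age still carries a network of vessels, the tunica vasculosa lentis, on its surface. Of 12 listed endothelial markers 9 were in the table, and 7 of these 9 were lowest in control replicate 2 and highest in control replicate 1 and Tdrd7 null replicate 2, an order held by 5.84% of all tested genes. The summed level of the 9 was 30.1 and 20.4 scaled reads in the control pools against 24.2 and 30.8 in the Tdrd7 null pools. Cdh5, the cadherin of endothelial junctions, stood at 3.47 and 1.09 in the control pools against 2.23 and 3.72 in the Tdrd7 null pools. The exceptions were Tek and Egfl7 (the latter sharing 264 nt of exonic sequence with Gm20532), the most abundant of the markers, which stayed between 6.57 and 7.63 in all 4 libraries.

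Of 5 pericyte markers in the table, Rgs5 and Abcc9 followed that order. Rgs5 stood at 7.53 and 2.86 in the control pools against 5.05 and 7.80 in the Tdrd7 null pools. Abcc9 stood at 1.74 and 1.61 in the control pools against 1.65 and 2.22 in the Tdrd7 null pools. Only its value in Tdrd7 null replicate 2 stood clear of the others. The 3 most abundant markers did not follow that order. Acta2, smooth muscle actin, was high in the other 2 libraries, at 22.2 and 32.2 in the control pools against 33.8 and 22.9 in the Tdrd7 null pools. Notch3 and Pdgfrb were lower in both null pools. Col15a1, which belongs to the same collagen family as Col18a1 (the multiplexins), had the order of Rgs5, at 2.65 and 1.11 in the control pools against 1.70 and 3.35 in the Tdrd7 null pools. Col15a1, Rgs5, Abcc9 and this order of libraries were chosen after the values were seen. No endothelial marker passed in limma, and none had an unadjusted p under 0.05. Col4a1, Col4a2 and Sparc, which vessels also make, had other orders, with control replicate 2 as the highest library for both chains and Tdrd7 null replicate 1 for Sparc. The part of vessel cells in the level of Col18a1 was not tested.

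**Figure D4:**
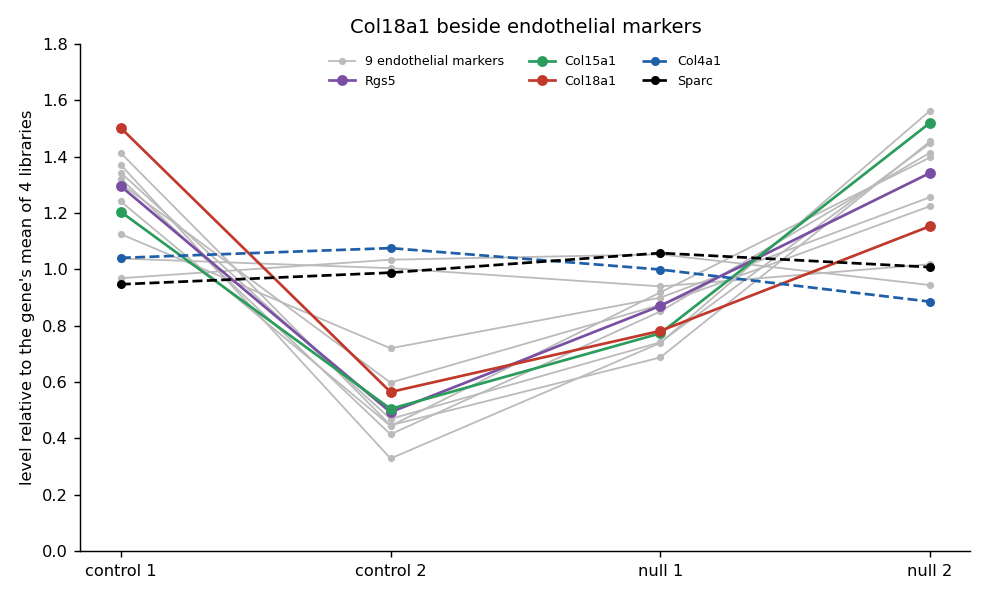
Level of each gene in each library relative to its mean over the 4 libraries, with lines joining the points of 1 gene. Col18a1, Col15a1 and Rgs5 fall and rise with 7 of the 9 endothelial markers (grey), reaching 0.564, 0.504 and 0.493 in control replicate 2, while Col4a1 and Sparc stay near 1.

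Genes that build, link, bind and break down collagen were called in both directions. Across 6 lists with 77 tested genes, 7 were called higher and 9 lower by limma, a share of 20.8% against 18.0% of all genes. Leaving out either control library or Tdrd7 null replicate 2 lowered this total of 16, and leaving out Tdrd7 null replicate 1 raised it. The total over all genes moved in the same directions. Only P4ha1 and Bgn kept their calls without each library in turn, and 7 of the 16 kept theirs with the GC and length trend removed. Without the intensity trend in limma's prior 0 list genes were called, where 16 of 10696 genes were called in all. In that setting 23 list genes had an unadjusted limma p under 0.05.

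Most genes of collagen biosynthesis did not pass (21 of 24). P4ha1, a catalytic subunit of the prolyl hydroxylase that stabilises the collagen triple helix, rose from 136 ± 9.10 to 178 ± 9.42 scaled reads (SD, n = 2). That is 0.38 on the log2 scale (SE 0.0605, limma adjusted p = 0.00218), and 0.32 with the GC and length trend removed (adjusted p = 0.0111). Plod2, a lysyl hydroxylase, rose by 0.23, and Crtap, a subunit of the prolyl 3-hydroxylase complex, fell from 10.4 ± 0.548 to 8.22 ± 0.192 (-0.31). With the trend removed these 2 stood at 0.10 (limma adjusted p = 0.418) and -0.20 (adjusted p = 0.186). Sec23a, a coat protein for export from the endoplasmic reticulum, stood at 0.16 and did not pass. The list's median log2 fold change was -0.03, and 12.5% of it was called against 18.0% of all genes. Plod2 overlaps exons of Gm38391 and Sec23a those of Gm17529, so both are uncertain.

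Of 7 tested genes that link or process collagen, 1 rose and 2 fell (42.9% called against 18.0% of all genes, median -0.08). Bmp1, the procollagen C-proteinase, fell from 55.9 ± 0.863 to 46.7 ± 0.366 (log2 fold change -0.25), and the lysyl oxidase-like enzyme Loxl1 fell from 97.5 ± 1.45 to 82.9 ± 8.96 (-0.24). With the GC and length trend removed they stood at -0.08 (limma adjusted p = 0.454) and -0.02 (adjusted p = 0.916). Loxl2, which crosslinks collagen IV and shares 301 nt with Gm27177 on the opposite strand, rose from 12.2 ± 0.743 to 15.2 ± 2.06 (0.30, and 0.37 with the trend removed). Pxdn, the peroxidase that forms the sulfilimine bonds of collagen IV, stood at 334 ± 3.83 and 311 ± 10.4 and did not pass (-0.10, limma adjusted p = 0.185).

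Among 6 tested collagen receptors 1 rose and 2 fell (50% called against 18.0% of all genes, median 0.14). Itgb1, the integrin subunit shared by the collagen-binding integrins, rose from 254 ± 9.98 to 302 ± 1.68 (log2 fold change 0.25). Its partner Itga2 fell from 15.4 ± 1.97 to 11.8 ± 1.58 (-0.35), and Itga1, another of its partners, stood at 0.32 and did not pass. The receptor tyrosine kinase Ddr1 fell by 0.21 on the log2 scale. With the GC and length trend removed Itga2 stood at -0.43 and passed (limma adjusted p = 0.0223), while Itgb1 at 0.16 (adjusted p = 0.0741) and Ddr1 at -0.00 (adjusted p = 0.993) did not. Ddr1 and Itga1 share exonic sequence with another gene.

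Of 11 tested genes of matrix degradation 0 rose and 2 fell (18.2% called against 18.0% of all genes, median -0.02). Both were inhibitors of metalloproteinases: Timp2 fell from 74.4 ± 0.606 to 64.4 ± 0.838 (log2 fold change -0.21) and Timp3, which shares 1733 nt of exonic sequence with Syn3 on the opposite strand, from 11 ± 0.288 to 8.74 ± 0.500 (-0.30). With the GC and length trend removed Timp3 passed at -0.33 (limma adjusted p = 0.0455) and Timp2 did not at -0.11. The proteases Adam10 (0.17) and Mmp14 (-0.25) did not pass.

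Relatives and partners of Sparc changed in 3 of 13 tested genes, 1 higher and 2 lower (23.1% called against 18.0% of all genes, median -0.10). Bgn, which encodes biglycan, went from 10.8 and 7.69 in control to 4.95 and 4.62 in Tdrd7 null replicates (log2 fold change -0.81, limma adjusted p = 0.00207), so both null pools lay below both control pools. Thbs1, which encodes thrombospondin and overlaps Gm29233, fell from 74.7 ± 1.0 to 64.5 ± 2.25 (-0.21), and Spock3, of the Sparc family, rose from 1.90 ± 0.111 to 2.90 ± 0.560 (0.42). With the GC and length trend removed Bgn passed at -0.79, and Thbs1 (-0.16, limma adjusted p = 0.0925) and Spock3 (0.17, adjusted p = 0.526) did not. Fbln2, which encodes fibulin, stood at -0.30 and did not pass.

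Collagens other than the 9 summed to 70.2 and 74.2 scaled reads over 17 genes in the control pools against 80.1 and 80.9 in the Tdrd7 null pools, and those called were higher in Tdrd7 null lenses. Of 16 tested, 2 rose and 0 fell (12.5% called against 18.0% of all genes, median 0.16). Over all genes 10.1% were called higher. Col6a6, a chain of the microfibrillar collagen VI, rose from 1.51 ± 0.156 to 2.39 ± 0.000563 (log2 fold change 0.44), and Col9a1, a chain of collagen IX, from 6.09 ± 0.152 to 7.72 ± 0.367 (0.30). Col20a1, at 0.37 (limma adjusted p = 0.0507), and Col11a2, at 0.27 (adjusted p = 0.0895), missed the threshold. With the GC and length trend removed 5 of 16 were called, all higher, against 1.91% of all genes called higher: Col6a6 (0.54), Col9a1 (0.37), Col20a1 (0.54), Col11a2 (0.56) and Col6a3 (0.27), the last chosen after its values were seen. The list's median was then 0.36, against 0.00 over all genes.

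Markers of mesenchyme beside these collagens were few. Of 10 listed, 3 were in the table, and their summed level was 84.9 and 86.9 in the control pools against 93.5 and 92.4 in the Tdrd7 null pools, most of it from Pdgfra. Foxc1 rose from 1.84 ± 0.0255 to 2.94 ± 0.0602 (log2 fold change 0.47, limma adjusted p = 0.0158), and Col1a2 stood at 0.24 and did not pass. That is 33.3% called, against 18.0% of all genes. With the GC and length trend removed Foxc1 stood at 0.64 and passed (limma adjusted p = 0.0117). The pericyte list had 5 genes in the table, with 40.0% called against 18.0% of all genes. Notch3 fell by 0.50 and Pdgfrb by 0.34 on the log2 scale. With the GC and length trend removed they stood at -0.26 (limma adjusted p = 0.102) and -0.19 (adjusted p = 0.248). The ciliary body and iris list had 4, of which 2 were called, both lower, where 18.0% of all genes were called. Mfap2 fell by 0.29 and Mfap4 by 0.21, and Opn3 did not pass (-0.17). With the trend removed Mfap2 and Mfap4 both stood at -0.17 (limma adjusted p = 0.0736 and 0.155). The pigment cell markers Mitf, at 14.8 to 16.8 scaled reads, and Tyrp1, at 1.21 to 1.78, did not pass. Opn3, Abcc9, Pdgfra and Notch3 share exonic sequence with other genes and are uncertain. Their part in the levels of collagens was not tested.

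**Figure D5:**
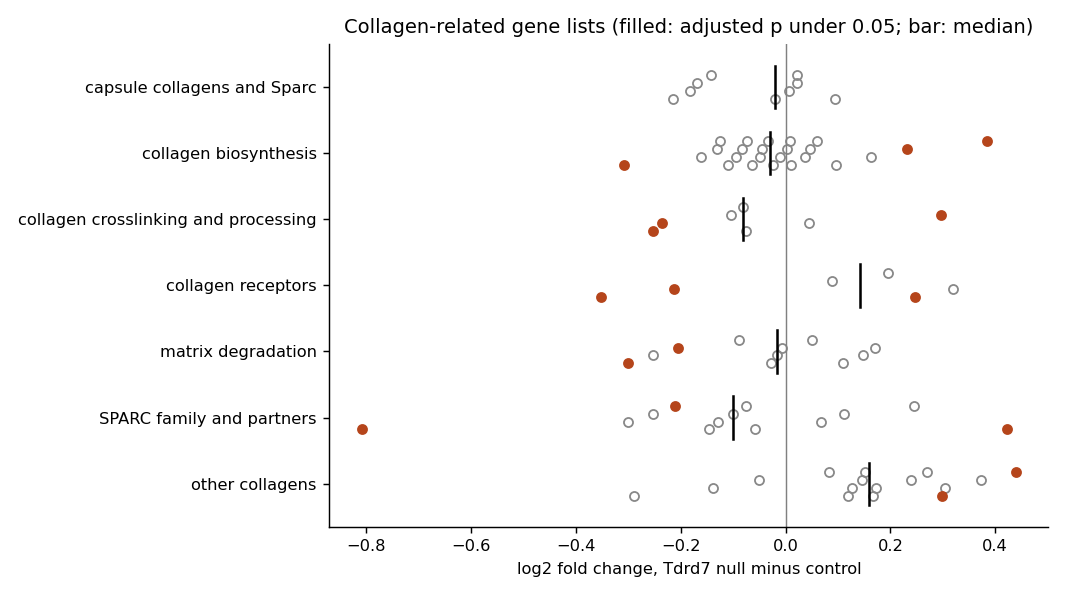
Log2 fold change (Tdrd7 null minus control) of every tested gene of the 9 members and of the 6 collagen-related lists, filled where the limma adjusted p was under 0.05, with a bar at each median. No member is filled, called genes lie on both sides of 0 in 4 lists, and the 2 called genes among other collagens lie above 0.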

How the data were processed

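Libraries were made with a TruSeq RNA version 2 kit and read from both ends for 75 nt, per the series' design text. The submitters' processing notes name the build mm10 (GRCm38) and the tools TopHat2 2.0.9, Trimmomatic, Cuffnorm and Cufflinks. The sources used here do not say how reads were counted or scaled. The deposited signal values were whole multiples, within 0.001, of 1 step per library (0.0237 to 0.0282), so they are read counts divided by 1 factor per library. No listed gene had a highest value under 1.02, so the table leaves out rarely read genes.

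The analysis used log2(scaled reads + 1) of genes with a mean of at least 1, with limma 3.58.1 in R 4.3.3 (intensity-dependent prior, two-sided, Benjamini-Hochberg over all genes). Fold changes are on that scale, which understates changes of low genes. Exact permutation tests used SciPy 1.17.1. Exon and transcript lengths, GC content and overlaps came from GENCODE M21. Trends on GC content and log2 length were removed with natural splines of 5 degrees of freedom. The fit was tested on simulated data.

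The members and lists were chosen with earlier results of these data known. From each list the 4 genes with the smallest p were named, and all called genes where 6 or fewer were called. Of each marker list the 3 genes with the highest mean were named. Foxe3, Gja1, Lim2, Rgs5 and Abcc9 were named after their values were seen. Alternatives covered the pseudocount, the filter, the library scaling, the prior, a replicate block, the GC and length trend, and each library left out. The count model planned as an alternative was not run.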

Additional observations from a re-analysis of the deposited data

How the results depend on the processing

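The count of 0 members called became 1 (lower) when libraries were scaled to the total without the crystallins, and 0 to 4 when single libraries were left out. With the replicate number as a block it was 2, and it was 3 with the numbers crossed, an alternative added after seeing the data because same-numbered libraries deviated in opposite directions (Pearson's r over genes -0.151). No label ties the numbers to a shared litter or day. The total of 16 list genes became 0 without the intensity trend, 10 with the GC and length trend removed, also with the replicate block, and 3 to 19 when single libraries were left out. The members' log2 fold changes that turned direction were those of Col4a1 (0.0333), Col4a2 (0.110) and Col5a1 (0.194) with the GC and length trend removed, with or without the replicate block, and of Pxdn among list genes (0.00109). Col4a5 and Col4a6 turned to -0.00184 and -0.0178 with upper-quartile scaling and to -0.0177 and -0.0336 without the crystallins. Col18a1 turned to -0.0104 with a pseudocount of 5 and to -0.0139 without the crystallins. Leaving out single libraries moved Col4a5 from -0.0213 to 0.0666, Col4a6 from -0.0296 to 0.0431, Col18a1 from -0.589 to 0.631 and Col5a1 from -0.173 to 0.133. None of these turned values passed. The cause was not tested. With single libraries left out, the difference in log2 ratio ran from -0.0507 to -0.00489 for Col4a1 to Col4a2, from -0.110 to 0.0440 for Col4a3 to Col4a4 and from -0.0161 to 0.0480 for Col4a5 to Col4a6, and that in summed collagen IV from -98.7 to -31.3 per kb. The replicate block moved Col4a3 and Col4a4 past the threshold and no other member. Over all genes 1920 were called, against 16 without the intensity trend, 338 and 423 with the GC and length trend removed (the latter with the replicate block), 3036 with the numbers crossed, and 431 to 2196 with single libraries left out. A genotype left with 1 library was assumed to vary like the other. The count model was not run. With 2 libraries per genotype, precision was limited by the spread between pools.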
